A study of Rattus norvegicus with 33 samples.

Results

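Parabacteroides was examined as the genus row of the deposited bacterial tables, 1 of 1455 genera, together with every species row of that genus, 2 of the 5543 species with percent values. The species rows were Parabacteroides distasonis, the type species of the genus, and Parabacteroides sp. CT06, a genome named by its strain code. The genus was chosen by its higher level in hypertensive rats in these same libraries. Every difference between the strains is therefore given as a description with no test. The differences between the sexes played no role in the choice and were tested.

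Parabacteroides are Gram-negative, strictly anaerobic rods of the order Bacteroidales and the family Tannerellaceae. They live in the large intestine of mammals, where they ferment sugars and polysaccharides that the host does not absorb and release acetate and succinate. Parabacteroides distasonis was long classified in Bacteroides, the genus that shares its habitat. Sequence of these organisms was not used here, so each is given by name and level.

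The study sequenced DNA of cecal contents from 33 rats aged 14 to 15 weeks, housed at the University of Florida. The groups were 10 female and 7 male SHR, the inbred spontaneously hypertensive rat whose blood pressure climbs with age, and 9 female and 7 male Wistar Kyoto rats (WKY), the normotensive comparison strain. The labels name no treatment, cage, litter or sequencing batch, and rats that shared a cage would make the p-values too small. Each strain carried its own run of animal numbers, so processing order and strain cannot be told apart. Rats are numbered below within their group in order of deposition, which serves to name them. The labels do not say whether that order follows cage, litter or batch.

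Between 163140 and 886827 reads per library were assigned to a taxon, of which bacteria took 95.1% to 97.9%. Depth was lower in SHR, with a median of 365717 assigned reads per female and 547938 per male, against 706634 per female and 688051 per male in WKY. Parabacteroides received 444 to 60587 reads per library. The exact 95% binomial interval of its share had a half-width between 0.755% and 9.41% of the value, and it covers counting error only. The spread between rats was far wider than that.

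Parabacteroides took several times more of the reads in SHR than in WKY of the same sex. It held 2.75% ± 1.81 (SD, n = 10) of assigned reads in SHR females, with a lowest value of 0.715%, a median of 2.68% and a highest value of 5.72%. SHR males averaged 2.69% ± 3.55 (SD, n = 7), from 0.674% through a median of 1.07% to 10.3%. WKY females averaged 0.503% ± 0.266 (SD, n = 9), from 0.204% through a median of 0.380% to 0.959%. WKY males averaged 0.282% ± 0.197 (SD, n = 7), from 0.0641% through a median of 0.216% to 0.576%.

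All 7 SHR males lay above all 7 WKY males, whereas 7 of 10 SHR females lay above all 9 WKY females and 3 lay within their range. In order of the group medians, SHR females came first, followed by SHR males and WKY females, with WKY males last, and the ranges of the sexes overlapped within each strain. The ratio of SHR to WKY means was 5.47 in females and 9.53 in males, and the ratio of medians was 7.06 and 4.96. Which sex had the larger ratio therefore turned with the choice of mean or median. In the SHR males, rat 5 held 10.3%, and without it their mean was 1.43% ± 1.31 (SD, n = 6), which gave a ratio of means of 5.06.

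**Figure D1:**
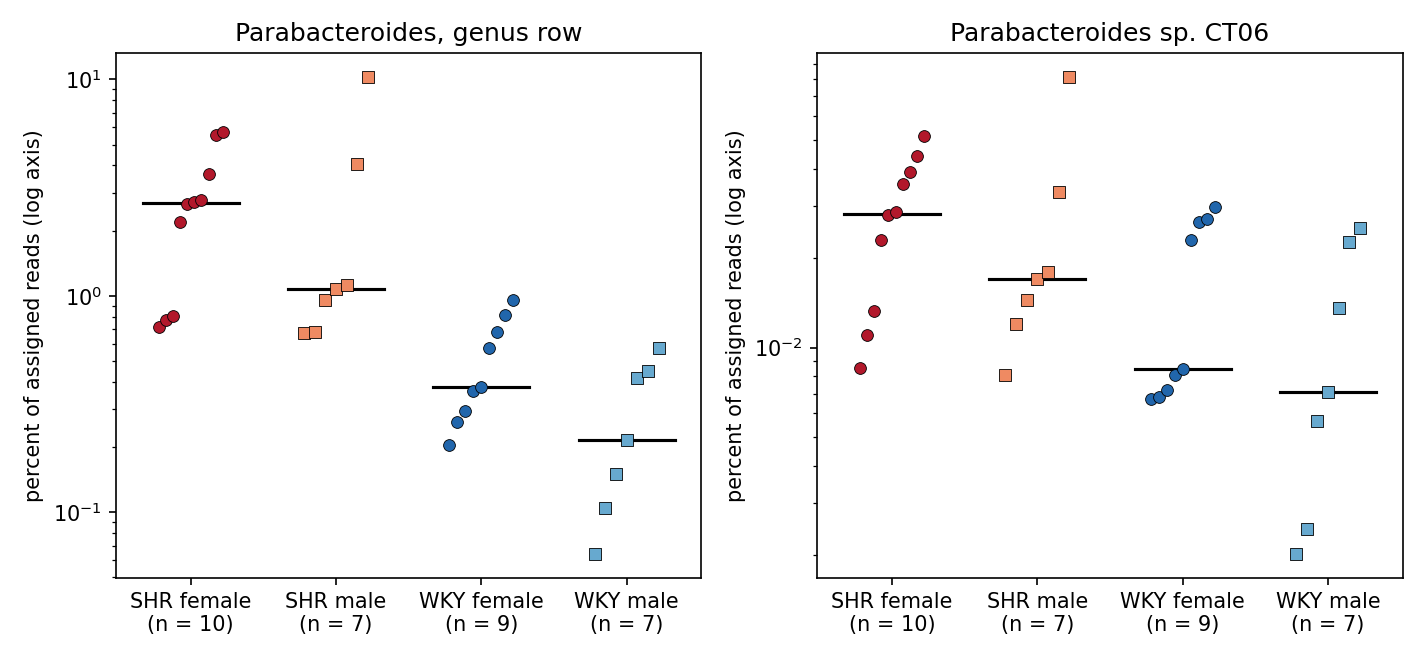
Percent of assigned reads (log axes) of the Parabacteroides genus row on the left and of Parabacteroides sp. CT06 on the right, with 1 point per rat, placed by size within its group, and a bar at the group median. The genus median was 2.68% in SHR females and 1.07% in SHR males against 0.380% in WKY females and 0.216% in WKY males, whereas sp. CT06 overlapped between the strains in both sexes.

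The SHR rats were themselves far apart. Of the 17 SHR, 8 held at most 1.12% and 9 held at least 2.19%, and no rat lay between. The lower set comprised 3 of the 10 females (rats 1, 9 and 10, at 0.715%, 0.769% and 0.810%) and 5 of the 7 males. Rat 5 and rat 2 of the SHR males, at 10.3% and 4.06%, were the only males in the upper set. Some SHR rats next to each other in order of deposition held like levels. Females 7 and 8 held 5.51% and 5.72%. Females 9 and 10 and males 3 and 4 followed them, at 0.769%, 0.810%, 0.674% and 0.682%. Male 5, deposited next, held 10.3%, so other neighbours differed. Whether the level of the genus follows the order of deposition was not tested. In the ranking of genera within each library, Parabacteroides stood at a median place of 5 (range 3 to 27) in SHR females and 14 (range 2 to 22) in SHR males. It stood at 31 (range 15 to 44) in WKY females and at 50 (range 25 to 73) in WKY males.

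The fitted strain differences had the same direction in both sexes. On the log2(normalized value + 1) scale, the genus was higher in SHR by 1.91 ± 0.50 (SE) in females and by 2.43 ± 0.58 (SE) in males, the second and first place from the top among 1418 genera. Because the genus was chosen for this contrast, its places describe the choice and support nothing. The limma fit called 13 of 1418 genera (0.917%) between the strains in females and 0 (0%) in males, at a Benjamini-Hochberg adjusted p under 0.05. At an unadjusted p under 0.05 the males gave 164 genera, and edgeR and DESeq2 called 13 and 26 genera there. With libraries scaled to equal totals, limma called 164 genera in females, 161 of them higher in SHR, and 90 in males, 89 of them higher in SHR.

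The strain difference in females minus that in males was -0.52 ± 0.76 (SE), smaller than its error. Without SHR male rat 5 the male difference was 1.93 and the difference between the sexes -0.02. On whole reads, edgeR and DESeq2 gave 3.17 and 3.18 for the males, a fold more than 1.5 times larger than limma's, and the cause was not tested.

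P. distasonis made up most of the genus. It held 1.99% ± 1.28 (SD, n = 10) of assigned reads in SHR females, from 0.549% through a median of 1.95% to 4.14%. SHR males averaged 1.92% ± 2.47 (SD, n = 7), from 0.488% through a median of 0.793% to 7.17%. WKY females averaged 0.359% ± 0.167 (SD, n = 9), from 0.151% through a median of 0.295% to 0.634%. WKY males averaged 0.205% ± 0.142 (SD, n = 7), from 0.0504% through a median of 0.165% to 0.434%.

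The same counts of rats separated as for the genus, 7 of 10 SHR females above all WKY females and 7 of 7 SHR males above all WKY males. Without SHR male rat 5, the male SHR mean was 1.05% ± 0.943 (SD, n = 6). The fitted difference between SHR and WKY was 1.90 ± 0.46 (SE) in females and 2.42 ± 0.54 (SE) in males on the log2 scale.

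Parabacteroides sp. CT06 was a minor member with 14 to 480 reads per library. It held 0.0283% ± 0.0145 (SD, n = 10) of assigned reads in SHR females, with a median of 0.0282% and a range of 0.0086% to 0.0515%. SHR males averaged 0.0264% ± 0.0256 (SD, n = 7), with a median of 0.0170% and a range of 0.0081% to 0.0814%. WKY females averaged 0.0159% ± 0.0102 (SD, n = 9), with a median of 0.0085% and a range of 0.0067% to 0.0297%. WKY males averaged 0.0112% ± 0.0095 (SD, n = 7), with a median of 0.0071% and a range of 0.0020% to 0.0252%.

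The strains overlapped in this species, with 4 of 10 SHR females above all WKY females and 2 of 7 SHR males above all WKY males. Its fitted strain difference was 0.51 ± 0.46 (SE) in females and 0.94 ± 0.53 (SE) in males on the log2 scale. With all libraries scaled to equal totals in place of the authors' size factors, these were 0.95 and 1.42. Without SHR male rat 5 the male SHR mean was 0.0172% and the fitted male difference 0.56.

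Within the genus, the share of P. distasonis was nearly level across the groups. It took 72.9% ± 1.87 (SD, n = 10) of genus reads in SHR females and 73.1% ± 1.81 (SD, n = 7) in SHR males. In WKY it took 73.6% ± 5.24 (SD, n = 9) in females and 73.7% ± 3.60 (SD, n = 7) in males. Reads placed in the genus with no species name took 25.97% ± 1.93, 25.6% ± 2.11, 23.4% ± 4.79 and 22.7% ± 3.33 (SD) in the same order of groups. These unnamed reads followed P. distasonis across the 33 libraries, with a Spearman rho of 0.987 between their normalized values, which share each library's size factor.

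The ratio of CT06 to P. distasonis was lower in SHR than in WKY. There were 1.58 ± 0.345 (SD, n = 10) CT06 reads per 100 P. distasonis reads in SHR females, from 1.14 through a median of 1.49 to 2.26. SHR males had 1.81 ± 0.519 (SD, n = 7), from 1.13 through a median of 2.004 to 2.42. WKY females had 4.19 ± 1.19 (SD, n = 9), from 2.31 through a median of 4.43 to 5.83. WKY males had 4.98 ± 1.59 (SD, n = 7), from 3.23 through a median of 4.61 to 7.42.

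All 10 SHR females lay below all WKY females and all 7 SHR males below all WKY males, although the highest SHR male, 2.42, passed the lowest WKY female, 2.31. Among SHR males the rats with the most P. distasonis, rats 5 and 2, had the lowest ratios, 1.13 and 1.14. P. distasonis and CT06 still moved together from rat to rat, with Spearman rho of 0.976 (n = 10), 0.929 (n = 7), 0.850 (n = 9) and 0.893 (n = 7) in the females and the males of SHR and the females and the males of WKY. Such values across rats share each library's depth and total. The ratio shares the strain contrast that chose the genus, so it too is a description.

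**Figure D2:**
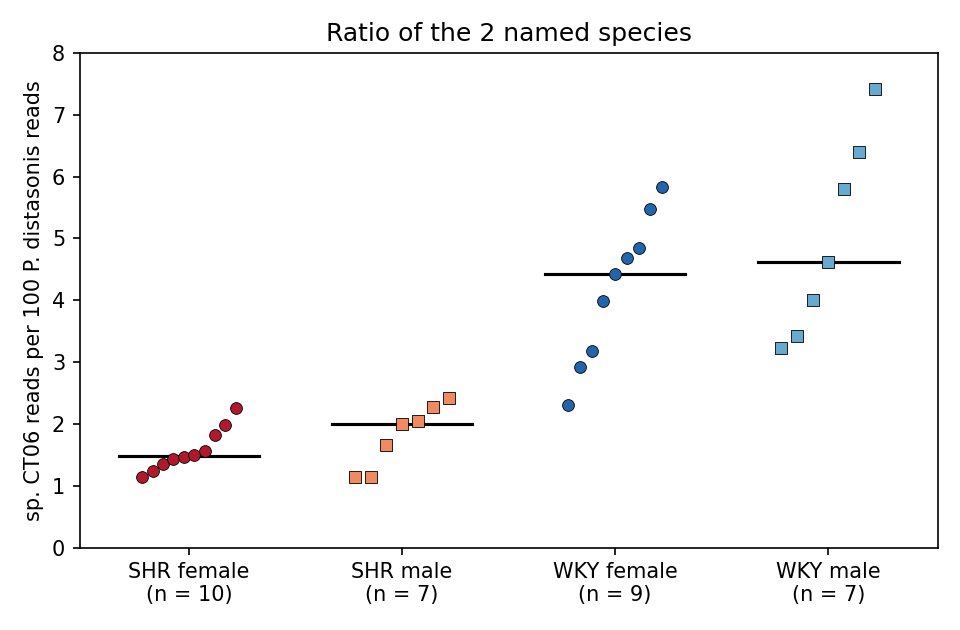
Reads of Parabacteroides sp. CT06 per 100 reads of P. distasonis in each rat, by group, with points placed by size and a bar at the group median. SHR rats lay between 1.13 and 2.42 and WKY rats between 2.31 and 7.42.

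Parabacteroides belongs to the phylum Bacteroidetes, which itself varied between rats from 5.20% to 49.2% of assigned reads. The phylum averaged 34.03% ± 10.3 (SD, n = 10) in females and 26.9% ± 12.7 (SD, n = 7) in males of SHR, and 30.6% ± 14.5 (SD, n = 9) in females and 18.1% ± 12.8 (SD, n = 7) in males of WKY. Parabacteroides followed the rest of its phylum from rat to rat. Spearman rho between the genus and the other Bacteroidetes reads was 0.819 over the 17 SHR and 0.988 over the 16 WKY, as percents of the same libraries. The highest level of the phylum was 3.37 times the lowest in SHR and 9.42 times in WKY. Whether that span bears on rho was not tested.

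As a share of Bacteroidetes reads, Parabacteroides no longer overlapped between the strains. It made up 7.50% ± 3.98 (SD, n = 10) of the phylum in SHR females, from 3.15% through a median of 6.79% to 15.2%. SHR males had 7.69% ± 6.24 (SD, n = 7), from 3.69% through a median of 4.68% to 20.9%. WKY females had 1.62% ± 0.244 (SD, n = 9), from 1.34% through a median of 1.56% to 2.06%. WKY males had 1.55% ± 0.255 (SD, n = 7), from 1.23% through a median of 1.60% to 1.83%.

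Every SHR rat, at 3.15% or more, thus lay above every WKY rat, at 2.06% or less. The coefficient of variation of this share was 64.0% over SHR and 15.3% over WKY. Without rat 5 the SHR males averaged 5.49% ± 2.44 (SD, n = 6).

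**Figure D3:**
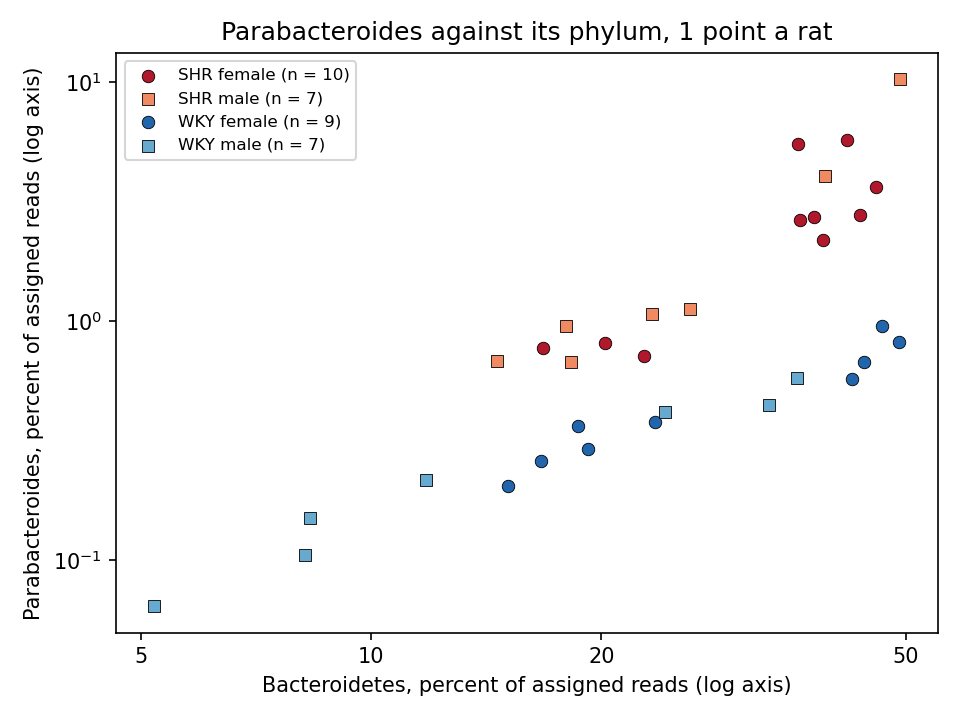
Parabacteroides against Bacteroidetes, both in percent of assigned reads on log axes, with 1 point per rat and the groups told apart by colour and shape. At like levels of the phylum the SHR points lie above the WKY points. Spearman rho with the other Bacteroidetes reads was 0.988 in WKY, where the phylum spanned a wider range, and 0.819 in SHR. All 15 related genera but Butyricimonas also had the higher rho in WKY.

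None of the related genera showed such a separation, but only Parabacteroides was chosen for its strain difference. How many of all genera separate in this way was not counted, so the contrast is a description. Of 20 listed Bacteroidales genera 15 were matched to the genus table and passed the filter on low values, and the other 5 were not analysed here. As shares of Bacteroidetes reads, 0 of the 15 had SHR and WKY rats that did not overlap, and the ratio of strain means ran from 0.685 in Dysgonomonas to 1.31 in Phocaeicola, with a median of 0.986. Tannerella, the other genus of the family Tannerellaceae in the table, made up 0.459% of the phylum in SHR and 0.464% in WKY. Bacteroides, the main polysaccharide degrader of the order, made up 26.2% and 25.2%. Muribaculum, a genus typical of the rodent gut, made up 23.5% and 26.9%. A higher Spearman rho with the rest of the phylum in WKY than in SHR was shared by all 15 but Butyricimonas. That genus had 0.709 in WKY and 0.882 in SHR.

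On the normalized log2 scale, limma called 0 of the 15 related genera between the strains in either sex. In females 1 of them had an unadjusted p under 0.05, beside 233 of all 1418 genera. The 1 related genus was Dysgonomonas, a fermenting genus of the order, at -0.70 and a limma adjusted p of 0.107. DESeq2 called 1 of the 15 in females, beside 52 of 1418 genera. The median difference of the 15 was -0.20 in females, beside -0.05 over all 1418 genera, with 4 of 15 higher in SHR. Scaling libraries to equal totals moved the median of all genera to 0.36 in females and 0.43 in males, and 13 of the 15 were then higher in SHR females.

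In males the related genera had a median difference of 0.43 beside -0.01 over all genera. Of the 15, 12 were higher in SHR males, or 15 on equal totals, where limma called 1 of them, beside 90 of all 1418 genera. On the normalized scale Bacteroides had the highest difference, 0.71, with a limma adjusted p of 0.522. Tannerella, the other Tannerellaceae genus, was the 1 of the 15 with an unadjusted limma p under 0.05, beside 164 of all genera. Tannerella was higher in SHR males by 0.50 ± 0.24 (SE), with the lowest limma adjusted p of the 15, 0.407. Parabacteroides itself was higher in SHR under either scale, at 2.32 in females and 2.87 in males on equal totals.

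**Figure D4:**
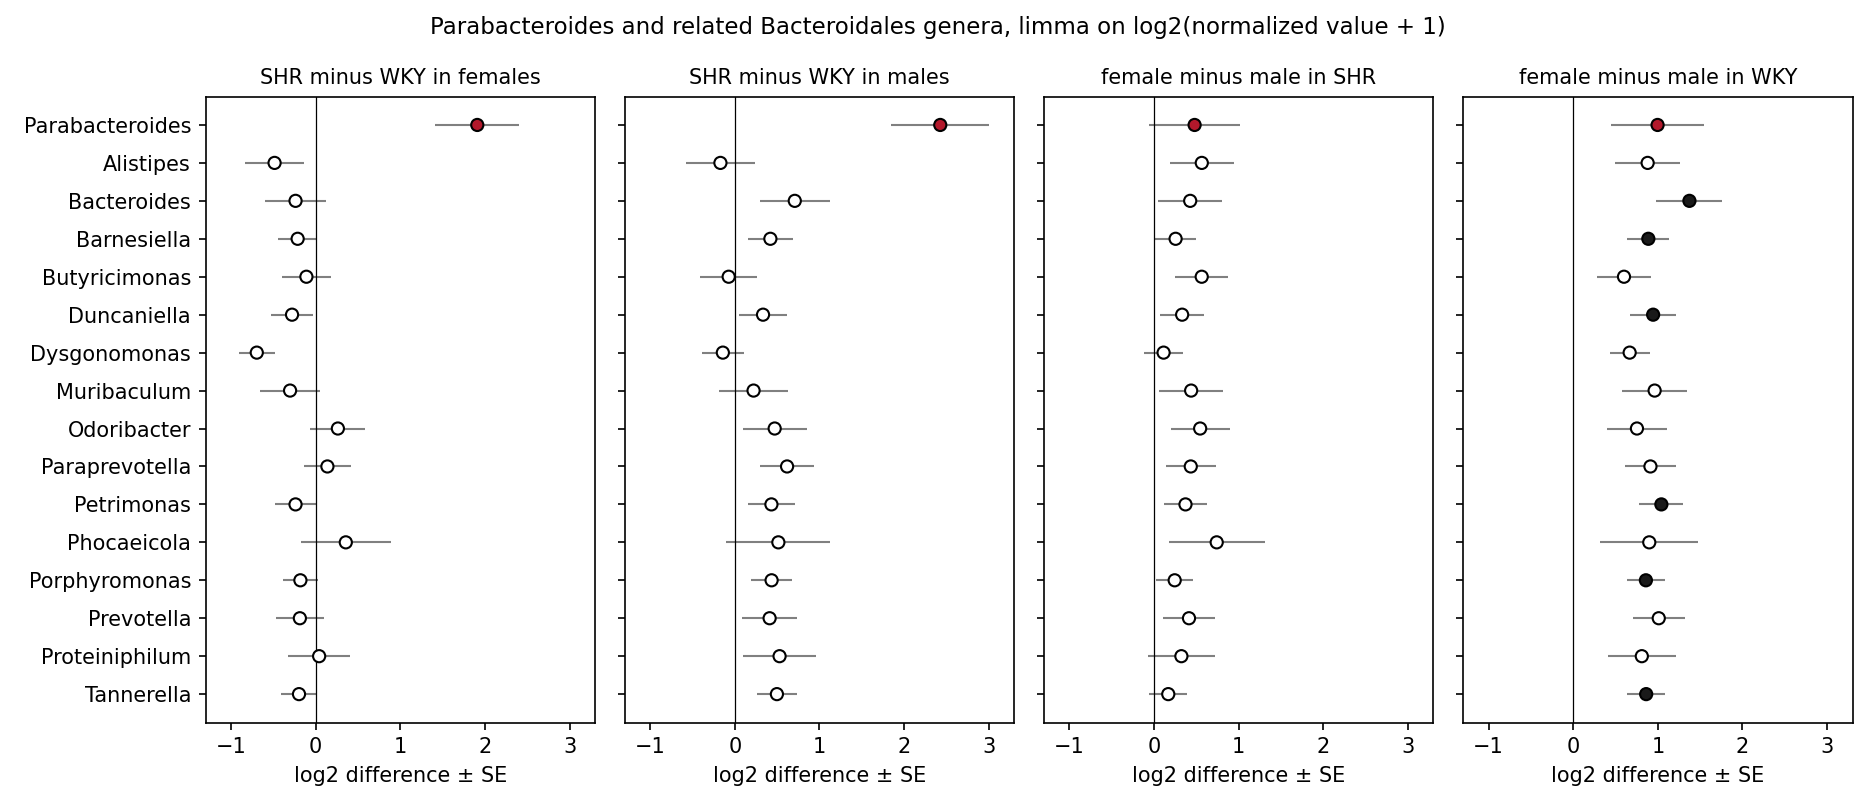
Log2 differences with their standard errors from limma for Parabacteroides (red) and 15 related Bacteroidales genera in 4 comparisons, where filled black points had an adjusted p under 0.05 and open points did not. The strain differences of Parabacteroides, 1.91 and 2.43, carry no test because the genus was chosen on them, and limma called 6 of the 15 related genera higher in WKY females than in WKY males.

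Between the sexes, none of the Parabacteroides rows passed the test. In SHR the genus was higher in females by 0.48 ± 0.53 (SE) on the log2 scale, with a limma adjusted p of 0.989. Limma called 0 of 1418 genera (0%) and 0 of 4641 species (0%) between the sexes of SHR, against 45 genera and 167 species at an unadjusted p under 0.05. edgeR and DESeq2 also called 0 of either rank. Without SHR male rat 5 the genus difference was 0.97 and that of P. distasonis 0.96, and neither passed. P. distasonis differed by 0.48 ± 0.49 (SE) and CT06 by 0.30 ± 0.49 (SE), both with a limma adjusted p of 0.988. The count tests put the genus and P. distasonis slightly lower in SHR females, by -0.07 and -0.03 with edgeR, so no direction can be given for them.

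In WKY the genus was higher in females by 0.997 ± 0.55 (SE), with a limma adjusted p of 0.424. P. distasonis was higher by 0.99 ± 0.51 (SE), with a limma adjusted p of 0.379, and CT06 by 0.73 ± 0.50 (SE), with a limma adjusted p of 0.561. Limma called 34 of 1418 genera (2.40%) and 33 of 4641 species (0.711%) in this comparison, and 0 of the 2 Parabacteroides species. The 9 females and 7 males overlapped, with 3 females above all males and 6 within their range.

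Taken one at a time, these WKY sex differences gave a smaller p. An exact 2-sided permutation test over 11440 splits of the WKY rats gave p = 0.0261 for the genus and p = 0.0185 for P. distasonis. Both were 0.131 after adjustment over the 10 exact tests that were run. The phylum moved with this difference, at 30.6% in WKY females and 18.1% in WKY males. As a log2 share of Bacteroidetes reads the genus differed by 0.07 between WKY females and males, with an exact permutation p of 0.520, and by 0.09 in SHR, with p = 0.825. The ratio of CT06 to P. distasonis did not pass the exact permutation test between the sexes either, at -0.80 CT06 reads per 100 P. distasonis reads in WKY females against males (p = 0.266) and -0.24 in SHR (p = 0.272).

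Of the related genera, 6 of 15 passed the limma test between the sexes of WKY. All 15 had a positive difference between WKY females and males, with a median of 0.89 beside 0.00 over all genera, and all 15 stayed positive on equal totals. The 6 called were all higher in females, where 2.40% of all genera were called. They were Bacteroides at 1.37 ± 0.39 (SE, adjusted p = 0.0483), Petrimonas, an anaerobic fermenter, at 1.04 ± 0.26 (SE, adjusted p = 0.0323), Tannerella at 0.86 ± 0.23 (SE, adjusted p = 0.0331), Duncaniella, Barnesiella and Porphyromonas. Parabacteroides, at 0.997, lay within their range of differences with a wider error.

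That count of 6 rested on single rats and on the scale. It was 7 with DESeq2, 6 on centred log-ratios, 0 on equal totals, 3 with edgeR, 1 without the trend and robust settings, and 0 when the SHR rats were left out of the fit. In the same order, these settings called 70, 36, 0, 41, 22 and 0 of all 1418 genera. The counts of 0 thus came where no genus at all was called. Leaving out WKY female 4, 6, 7 or 8 or WKY male 2, 4, 5 or 6 gave 0, WKY female 3 gave 1, WKY male 1 gave 2 and WKY male 7 gave 9. Leaving out SHR female 1, 2, 3, 4, 6, 7, 8 or 10 or SHR male 1, 3 or 7 gave 3. In SHR all 15 differences between the sexes were also positive, with a median of 0.41, and 0 were called, with 0 at an unadjusted p under 0.05.

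Across all 33 libraries, the genera whose normalized values ranked most like those of Parabacteroides were Phocaeicola (Spearman rho 0.738), Hymenobacter (0.723), Bacteroides (0.703), Prevotella (0.693) and Tannerella (0.640). The median rho over the 79 other genera with a mean of at least 0.1% of reads was -0.122. With each group's mean taken off, which leaves the spread between rats of a group, the closest were Prevotella (0.901), Hymenobacter (0.883), Barnesiella (0.865), Tannerella (0.863) and Porphyromonas (0.847), beside a median of -0.203. All of these are names of Bacteroidetes, and all values share each library's depth and total.

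Among 430 functional subsystems with a mean normalized value of at least 100, those most like Parabacteroides were Capsular Polysaccharides Biosynthesis and Assembly (Spearman rho 0.915), Biotin synthesis & utilization (0.840), Colanic acid biosynthesis (0.786), Lipid A-Ara4N pathway (0.775) and a cluster known by a genome code (0.857). With group means taken off, they were Na+ translocating decarboxylases (0.901), Ton and Tol transport (0.893), Cellulosome (0.890), Propionyl-CoA to Succinyl-CoA Module (0.888) and the same coded cluster (0.880). The medians over the 430 were -0.030 and -0.064. Of these names, lipid A and TonB-linked transport belong to the Gram-negative cell envelope, whereas others, such as biotin synthesis, do not. A subsystem's reads come from the whole community, Parabacteroides included.

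In the authors' deposited table of their general model, the taxon number of P. distasonis stood with a log2 fold change of -3.06 (SE 0.503). Its column header names no direction. A negative sign was read as higher in SHR, because the deposited percents of P. distasonis averaged higher in SHR in both sexes. In the authors' deposited tables for females and for males the values were -2.11 (SE 0.387) and -3.12 (SE 0.624). The name printed beside that number was another organism's in each of these 3 tables, and the row was read by its number. Of the rows of the authors' deposited general table, 383 carried the number of a species. The mean of all 383 equalled that number's mean in the normalized table within 0.1%, while the printed name matched the number in 1. In the authors' deposited female and male tables, the mean lay within 25% of that number's mean over the libraries of that sex in 187 of 187 and 33 of 33 rows. By the printed name, 38 of 213 and 8 of 38 rows lay within it. The rows that carry the printed name P. distasonis in the authors' deposited female and male tables hold values of the opposite sign, 1.83 and 1.73. In the authors' deposited general table the row so named holds -2.23, the same sign. CT06's number was in 0 rows of the 3 tables of the authors.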

How the data were processed

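Cecal DNA was made into Nextera libraries after a bead-based PowerSoil extraction, per the labels' protocols. FastQC 0.11.5, cutadapt 2.6, Trimmomatic 0.36 and DESeq2 were used with a rat genome build, per the submitters' processing notes. No source used here names the classifier or its database, and related species can share reads. The authors deposited percent of reads per taxon and a normalized signal, each read count divided by a size factor. The percents are of all assigned reads. The authors also deposited log2 fold changes and p-values of their own models, with the mean, the standard error and the test score of each taxon.

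Whole reads were recovered for 100% of deposited values, within 0.01 read. The main test was limma 3.58.1 (R 4.3.3), with trend and robust settings, on log2(value + 1), which understates changes of low taxa. It used 4 group means over 33 libraries, taxa with a value of 10 in at least 7 libraries (1418 genera, 4641 species) and 2-sided Benjamini-Hochberg adjusted p-values over each table. edgeR 4.0.16 and DESeq2 1.42.0 on the recovered reads, other scales, pseudocounts and filters, and leaving out each library were alternatives. Every Parabacteroides row was reported in full, beside a list of related Bacteroidales, the 5 genera (mean of at least 0.1%) and 5 subsystems (mean of at least 100) most like it. Members and lists were chosen with earlier results of these data known. Values were described with scipy 1.17.1, pandas 2.3.3 and numpy 2.4.6 in Python 3.11.15, and plotted with matplotlib 3.10.9.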

Additional observations from a re-analysis of the deposited data

Results flagged for a closer look

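In SHR male rat 5 Parabacteroides took 10.3% of assigned reads, P. distasonis 7.17% and sp. CT06 0.0814%. Each value lay apart from the other 6 SHR males by more than Dixon's 95% limit for 7 samples, with a gap to the nearest rat of 0.647, 0.632 and 0.653 of the group's whole range against a limit of 0.568. These 3 values came from 20 groups of values examined, and they share 1 library. Chance passes the limit in about 1 in 20 groups if the values are normally distributed. The percents of the genus in SHR males were skewed, with a mean of 2.69% and a median of 1.07%. Dixon's limit was not applied on the log2 scale, where rat 5 stood at 15.8, rat 2 at 14.1 and the lowest SHR male at 11.6. The same rat had the highest Bacteroidetes level of the SHR males, 49.2% of assigned reads, and 20.9% of its Bacteroidetes reads were Parabacteroides. Its 589586 assigned reads lay within the range of the other libraries. Its place in the strain differences is given beside them above.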

How the results depend on the processing

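The SHR minus WKY differences of the genus and of P. distasonis were positive in all 43 fits, from 1.76 to 2.32 for the genus in females and from 1.93 to 3.18 in males. The genus was chosen on this contrast, so the constant sign is a description and no support. Many of these fits could not change it, since leaving out a rat of 1 sex leaves the difference in the other sex as it was. Neither Parabacteroides species was called between the sexes in any of 43 fits. Female minus male in SHR turned negative on whole reads, at -0.072 (edgeR) and -0.062 (DESeq2) for the genus and -0.031 and -0.016 for P. distasonis, and the cause was not tested. The exact permutation test put female minus male in WKY past an unadjusted 0.05, at 0.997 (p = 0.0261) for the genus and 0.993 (p = 0.0185) for P. distasonis. The share of Bacteroidetes reads was chosen as a scale after seeing the data, and there these differences were 0.074 and 0.070. Of the 15 related genera, 1 was called between the strains in females with DESeq2 and 1 in males on equal totals. These settings called 52 and 90 of all 1418 genera. Between the sexes of WKY 7 of the 15 were called with DESeq2, 6 on centred log-ratios, 0 on equal totals, 3 with edgeR, 1 with plain eBayes, 0 with only those groups fitted, and 0 to 9 when 1 library was left out. Apart from leaving out a library, these settings called 70, 36, 0, 41, 22 and 0 of all 1418 genera, in the same order. No paired analysis was possible because the numbers of the rats come from the order of deposition and pair no animals. CT06, at 14 to 480 reads, is the value that depth limits most.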
